A study of Mus musculus with 30 samples.

Results

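The accessibility of chromatin around 8 target genes of the transcription coactivator YAP and its DNA-binding partners, the TEAD factors, was followed in mouse cells treated with inhibitors of actin polymerization. The genes were Ccn1 (also called Cyr61), Ccn2 (also called Ctgf), Ankrd1, Amotl2, Ajuba, Lats2, Axl and Crim1. A window, meaning a region in which reads were counted, was assigned to a gene when the nearest protein-coding transcription start site (TSS, GRCm38, GENCODE vM21) within 50 kb was that gene's. By this rule 260 of 305931 windows in the table of the 24 h and siRNA libraries and 317 of 369846 windows in the table of the 4 h libraries belonged to the 8 genes. The genes were chosen by their known role and with measured values of these data in view, and which comparison chose them is not recorded. The lower counts at Ccn2 after 4 h of CK666 in MSCs were taken as those values. That comparison is therefore given as a description. Its windows are counted at the same limits as the others, with no p-value printed and nothing concluded from the counts. The p-values of the other comparisons are not free of that choice, since they too may have been in view.

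YAP and its paralog TAZ are held in the cytoplasm when the Hippo kinases, with LATS1 and LATS2 at the end of the cascade, phosphorylate them. When the kinases are inactive YAP and TAZ enter the nucleus, bind the TEAD factors, which recognize the letters GGAATG, and switch on genes of growth, adhesion and extracellular matrix, often together with AP-1 factors at distal enhancers. Actin filaments and cell tension are known to favour nuclear YAP in fibroblasts and mesenchymal cells, and several targets (Lats2, Amotl2, Ajuba) are themselves regulators of the pathway.

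Of the 30 ATAC-seq libraries of the study, 21 libraries in 7 groups of 3 were used here. Mesenchymal stem cells (MSCs) grown from mouse bone marrow (C57BL/6J, male by the labels, from several mice by the methods) were left without treatment, treated for 24 h with CK666, an inhibitor of the Arp2/3 complex that branches actin filaments, or treated for 24 h with CytoD (cytochalasin D), which blocks the growth of filament ends. MSCs and NIH3T3 cells, an established line of mouse embryonic fibroblasts, were also left without treatment or treated with CK666 for 4 h. The labels give no age. The MSCs were 1 primary line by the methods, so replicates were not separate animals, and the labels do not say whether they were separate cultures, so p-values measure only the spread between these libraries, which may be technical. ATAC-seq counts the cuts a transposase makes in accessible DNA, and it does not measure the RNA of these genes.

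Total counts per library ran from 14071301 to 22352180 at 24 h, from 29239381 to 34979833 in MSCs at 4 h and from 14496058 to 27866363 in NIH3T3 cells. At 4 h depth split by treatment. In MSCs the CK666 libraries had 31634170 to 34979833 counts, against 29239381 to 30017192 in controls. In NIH3T3 cells they had 14496058 to 23146416, against 24368857 to 27866363. At 24 h rank correlations within the CytoD group ran from 0.804 to 0.829, against 0.834 to 0.871 in controls and 0.856 to 0.862 with CK666. The part of depth in the results below was not tested. The NIH3T3 CK666 replicate 1 library had the smallest total of its experiment and rank correlations of 0.777 and 0.786 with its group, whose other pair had 0.834. Values below are normalized counts, that is counts divided by the TMM-scaled library size relative to the mean of the same experiment. The 3 experiments (MSC 24 h, MSC 4 h, NIH3T3 4 h) were scaled separately, so levels are compared only within one of them. As a check of the cell label, 6 of 10 mesenchymal marker genes had a window at the TSS in MSCs at 24 h, at a median percentile of 71.8 among genes with one, against 3 of 8 hematopoietic markers (10.6), 2 of 5 endothelial markers (15.4) and 1 of 5 epithelial markers (10.1). Ptprc, which defines blood cells, had none, and neither had the mesenchymal markers Thy1, Eng, Ly6a and Nt5e. Prrx1 (23.5) and Col1a1 (29.5) stood near the hematopoietic Csf1r (28.4), and the other mesenchymal markers with a window at 68.9 or above. At 4 h, 7 of 10 mesenchymal and 2 of 8 hematopoietic markers had a TSS window in each cell type. The mesenchymal markers stood at a median percentile of 58.2 in MSCs and 51.7 in NIH3T3 cells, and the hematopoietic markers at 22.9 and 32.4. Thy1 (0.0293 in MSCs and 34.1 in NIH3T3 cells), Prrx1 (18.1 and 29.3) and Col1a1 (21.4 and 33.6) stood below Csf1r (30.1 and 38.0). Summed over the mesenchymal markers at 24 h, TSS counts per kb ran from 1886 to 2058 in control libraries, 1657 to 1756 with CK666 and 1466 to 1622 with CytoD, and the hematopoietic sums from 107.3 to 146.5, 74.81 to 119.0 and 139.1 to 209.2, and their part in the results below was not tested. In MSCs at 4 h the hematopoietic sums ran from 180.7 to 217.1 in controls and from 116.8 to 170.8 with CK666, with no overlap, and the mesenchymal sums from 2835 to 3112 and from 2651 to 2889. In NIH3T3 cells the hematopoietic sums ran from 211.9 to 242.7 in controls and from 175.2 to 217.8 with CK666, and the mesenchymal sums from 2491 to 2936 and from 2265 to 2761. A smaller share of cells with open chromatin at a window and less access per cell cannot be told apart in bulk libraries.

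Stretches of 200 bases from 4 windows with lower counts after treatment are printed because the results turn on these windows, and each stretch is the part of the window with most motif matches. They are written 5′ to 3′ on the strand of the gene in GRCm38. Capitals mark TEAD letters (GGAATG or CATTCC) and AP-1 letters (TGACTCA or TGAGTCA), both strands being searched. The first 2 windows lost accessibility with both inhibitors at 24 h, and the last 2, upstream of Ccn2, with CytoD.
Ccn2 window at +4073 bp, chr10:24600028-24600227, + strand: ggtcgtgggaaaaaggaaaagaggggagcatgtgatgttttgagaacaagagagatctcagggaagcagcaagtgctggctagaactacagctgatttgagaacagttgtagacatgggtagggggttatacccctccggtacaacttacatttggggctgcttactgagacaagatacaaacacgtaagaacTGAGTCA
Ccn1 window at +4423 bp, chr3:145644839-145645038, - strand: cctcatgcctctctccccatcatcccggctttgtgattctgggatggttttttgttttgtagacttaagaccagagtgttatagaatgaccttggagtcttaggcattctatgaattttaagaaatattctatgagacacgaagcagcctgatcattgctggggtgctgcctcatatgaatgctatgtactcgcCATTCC
Ccn2 window at -14229 bp, chr10:24581113-24581312, + strand: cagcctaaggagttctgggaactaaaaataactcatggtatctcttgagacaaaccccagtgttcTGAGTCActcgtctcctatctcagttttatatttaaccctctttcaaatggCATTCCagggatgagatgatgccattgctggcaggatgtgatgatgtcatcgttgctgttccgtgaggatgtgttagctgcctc
Ccn2 window at -41135 bp, chr10:24554207-24554406, + strand: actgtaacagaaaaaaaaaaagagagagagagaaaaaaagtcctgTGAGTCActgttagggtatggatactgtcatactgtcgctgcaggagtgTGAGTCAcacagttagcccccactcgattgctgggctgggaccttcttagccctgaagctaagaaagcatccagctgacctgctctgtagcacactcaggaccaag
The Ccn2 window downstream of the gene held 1 AP-1 match and no TEAD match over its whole length, and the Ccn1 window held 1 match of each kind, the TEAD match being the one in capitals here.

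RefSeq (GRCm38.p6) gave promoters for 7 of the 8 genes. In the 250 bases before the start, 6 of their 8 promoters held the TEAD letters on either strand, against 12.6% of all 32851 promoters of the same length, and 1 match each was found at Ccn1, Amotl2, Axl and Crim1, 2 at Ankrd1 and 2 at Ajuba. Neither promoter of Lats2 held them. A match describes letters and does not show that a factor was bound. The promoters of Ccn1, Ankrd1 and Ajuba are shown because their TSS windows are followed below.
Ccn1 promoter, chr3:145649986-145650235, - strand: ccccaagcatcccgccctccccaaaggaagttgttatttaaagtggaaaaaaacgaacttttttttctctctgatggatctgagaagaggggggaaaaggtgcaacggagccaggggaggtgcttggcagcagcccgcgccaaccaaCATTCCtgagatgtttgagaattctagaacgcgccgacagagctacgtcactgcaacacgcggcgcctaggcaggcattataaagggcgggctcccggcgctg
Ankrd1 promoter, chr19:36119845-36120094, - strand: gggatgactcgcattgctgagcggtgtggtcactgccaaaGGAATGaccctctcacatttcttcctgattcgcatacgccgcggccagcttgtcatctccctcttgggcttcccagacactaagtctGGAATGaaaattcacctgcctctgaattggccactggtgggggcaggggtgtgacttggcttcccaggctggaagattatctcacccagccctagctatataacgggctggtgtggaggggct
Ajuba promoter, chr14:54577662-54577911, - strand: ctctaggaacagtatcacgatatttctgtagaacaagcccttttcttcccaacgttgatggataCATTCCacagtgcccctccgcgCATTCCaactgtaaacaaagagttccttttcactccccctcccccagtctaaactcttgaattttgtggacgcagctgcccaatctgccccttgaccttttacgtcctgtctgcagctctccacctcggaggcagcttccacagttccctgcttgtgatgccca

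At 24 h, 258 of the 260 windows had enough counts to be tested. A window was called when edgeR's quasi-likelihood test, adjusted by Benjamini-Hochberg over all tested windows, gave an adjusted p under 0.01 and the log2 fold change went beyond 1 in either direction. With CK666, 5 of the 258 windows were called lower (1.94%) and 0 higher, against 1.06% and 1.88% of all windows tested. With CytoD, 9 were called lower (3.49%) and 0 higher, against 1.4% and 0.98% of all windows. DESeq2 called 6 and 8 windows lower and again 0 higher, and at an unadjusted p under 0.05 edgeR's test had 23 windows higher with CK666 and 18 with CytoD, beside 42 and 58 lower. Shares of all windows at the unadjusted p were not counted, so no lean of these genes is read from those numbers. The 2 treatments were set against the same 3 control libraries, so their counts are not independent of each other. By the adjusted p alone, 20 windows were lower and 3 higher with CK666, against 2.92% and 3.01% of all windows, and 24 and 1 with CytoD, against 4.0% and 1.7%. The count of windows called lower with CK666 was 9 without CK666 replicate 3 and 8 without control replicate 1 or either of CytoD replicates 1 and 2. With CytoD 1 window was called higher without CytoD replicate 1 or control replicate 2, and 2 without control replicate 1. Beside the called windows, the median log2 fold change over the 258 windows was -0.03 with CK666 and -0.10 with CytoD, against 0.02 and 0.04 over all windows, and 54.7% and 58.5% of them were below 0, against 48.3% and 47.0% of all windows. Of all windows called with CytoD, 41.2% were higher, and 56.4% when libraries were scaled by total counts.

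**Figure D1:**
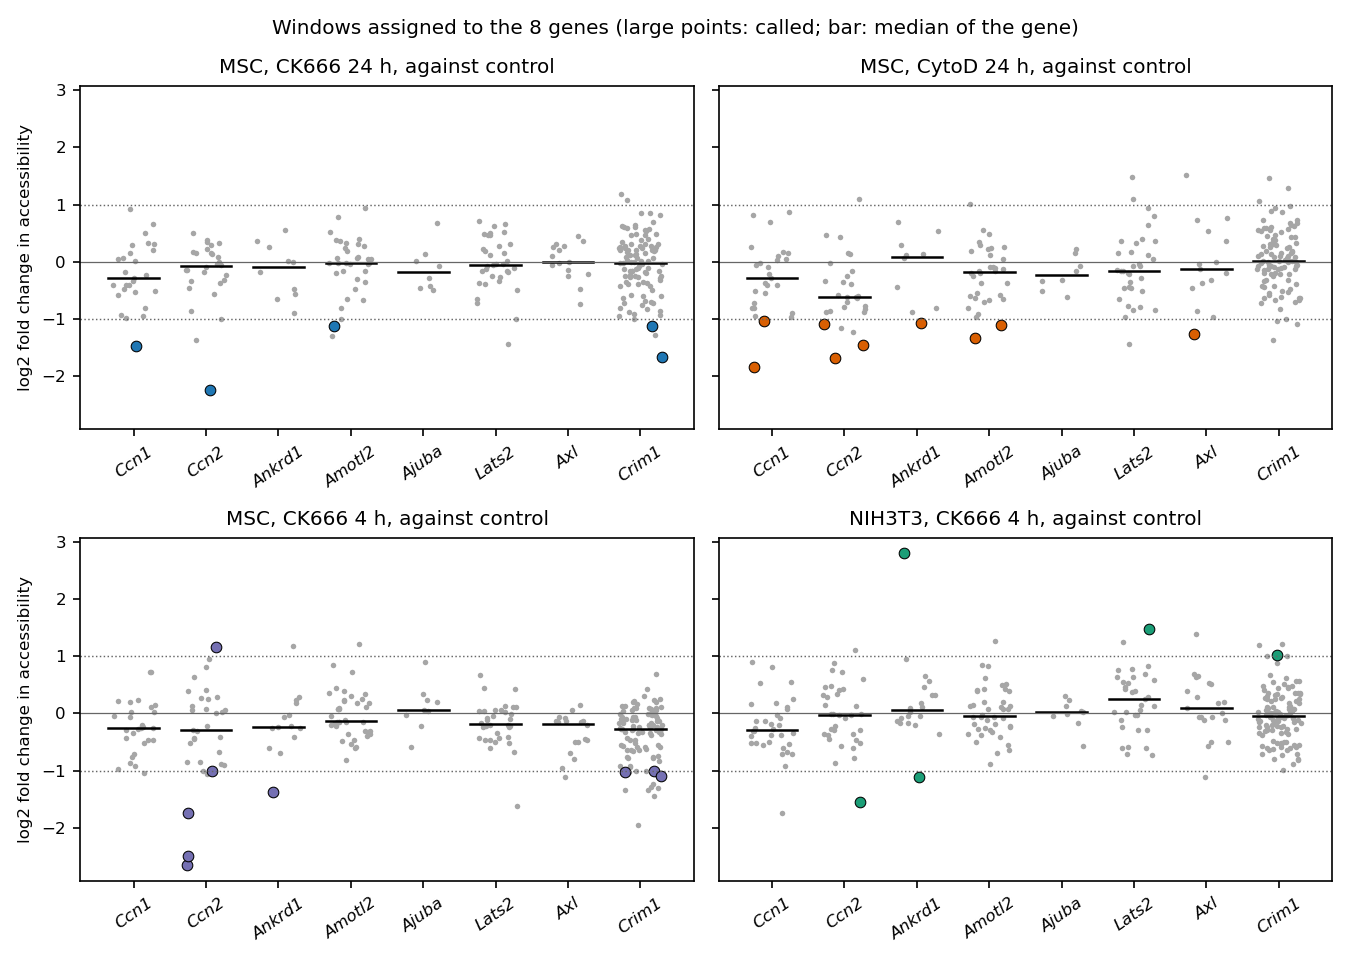
Log2 fold change in accessibility (y axis) of each tested window of the 8 genes (x axis) in the 4 comparisons with control, with large coloured points for windows past both limits, a bar for the median of each gene and dotted lines at the fold limit. With CytoD at 24 h the Ccn2 windows have a median of -0.61 and the Crim1 windows one of 0.02.

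Called windows were spread over 5 genes with CytoD (Ccn2, Ccn1, Amotl2, Ankrd1 and Axl) and over 4 genes with CK666 (Ccn2, Ccn1, Amotl2 and Crim1), while no window of Ajuba or Lats2 was called with either. The number of windows per gene at 24 h ran from 8 at Ajuba to 104 at Crim1, so the genes did not have the same chance to hold a called window. The median log2 fold change with CytoD was lowest at Ccn2, -0.61 with 23 of 28 windows below 0, followed by Ccn1 at -0.28 with 18 of 27 windows below 0. With CK666 it was lowest at Ccn1 (-0.28), followed by Ajuba (-0.18), and was -0.07 at Ccn2 with 16 of 28 windows below 0. Windows of 1 gene share a locus and are not replicates of each other.

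Ccn2 and Ccn1 encode secreted matricellular proteins that bind integrins, and both are among the most used readouts of YAP activity. Just past the 3′ end of each gene, 1 window lost accessibility with both inhibitors. The Ccn2 window (chr10:24599272-24600435, 1170 bp past the end of the gene) had 114.3, 90.35 and 87.58 normalized counts in the 3 control libraries. In the CK666 libraries it had 8.427, 23.49 and 29.48, and in the CytoD libraries 21.63, 35.22 and 32.92. All 6 treated libraries lay below all 3 controls. The mean fell from 97.4 ± 14.7 to 20.5 ± 10.9 with CK666 and to 29.9 ± 7.27 with CytoD (SD, n = 3 each). The log2 fold change was -2.24 ± 0.28 (SE) with CK666 and -1.68 ± 0.27 with CytoD, and edgeR's quasi-likelihood test, adjusted by Benjamini-Hochberg, gave adjusted p values of 9.19e-10 and 1.83e-06. The difference between the inhibitors at this window, -0.56 ± 0.32, did not pass (edgeR, adjusted p = 0.281).

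The corresponding Ccn1 window (chr3:145644596-145646520, 1418 bp past the end of the gene) had 213.0, 127.9 and 158.2 normalized counts in control libraries. It had 63.67, 59.16 and 55.03 with CK666 and 44.54, 48.58 and 45.72 with CytoD. The treated libraries lay close together, below the lowest control. The log2 fold change was -1.47 ± 0.19 with CK666 (edgeR, adjusted p = 2.12e-09) and -1.83 ± 0.20 with CytoD (adjusted p = 1.83e-11), and the inhibitors did not differ past the threshold (0.36, adjusted p = 0.324). Further along, the window at +16910 bp (chr3:145632800-145633342) had 63.64, 63.93 and 88.47 counts in controls, 39.33, 35.67 and 34.4 with CK666 and 54.72, 29.15 and 24.69 with CytoD. All treated libraries lay below the controls. Its CytoD change of -1.03 ± 0.26 was called (edgeR, adjusted p = 0.00463), and its CK666 change of -0.99 missed the fold limit (adjusted p = 0.00484). The CytoD call was lost with DESeq2 (-1.04, adjusted p = 0.0107) and with total counts (-0.95, edgeR, adjusted p = 0.0114), and also without CytoD replicate 2 (-0.94, adjusted p = 0.0322), without CytoD replicate 3 (-0.81, 0.0752) and without control replicate 3 (-0.87, 0.0699), all by edgeR. The Ccn1 window with the highest mean control count lay at -35068 bp (chr3:145684524-145685575). It had 642.9, 706.6 and 716.7 counts in controls, 535.6, 443.7 and 469.8 with CK666 and 385.6, 400.8 and 399.6 with CytoD. Again every treated library was below the controls. It fell by 0.51 and 0.80 on the log2 scale, both past the adjusted p and short of the fold limit (edgeR, adjusted p = 6.3e-06 and 7.66e-11).

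Upstream of Ccn2, 2 windows fell with CytoD and did not pass with CK666. The window at -41135 bp (chr10:24554042-24554572) had 179.2, 199.4 and 208.2 normalized counts in controls, 162.9, 139.2 and 205.4 with CK666 and 76.35, 81.37 and 60.35 with CytoD. Its CytoD libraries lay below all others, and its CK666 libraries overlapped the controls. The log2 fold change was -1.45 ± 0.16 with CytoD (edgeR, adjusted p = 6.27e-11) and -0.22 with CK666 (adjusted p = 0.411), and the difference between the inhibitors, 1.23 ± 0.16, passed (adjusted p = 9.96e-09). At -14229 bp (chr10:24580932-24581495) controls had 159.7, 167.9 and 171.6 counts, the CK666 libraries 156.4, 182.7 and 194.6, and the CytoD libraries 78.89, 93.51 and 66.75. The change with CytoD was -1.08 ± 0.16 (edgeR, adjusted p = 2.96e-07), that with CK666 was 0.09 (adjusted p = 0.78), and the difference was 1.17 ± 0.16 (adjusted p = 1.55e-08). Without CytoD replicate 3 the CytoD change was -0.97 and with total counts -0.999, both short of the fold limit. The letters of both windows are printed above.

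**Figure D2:**
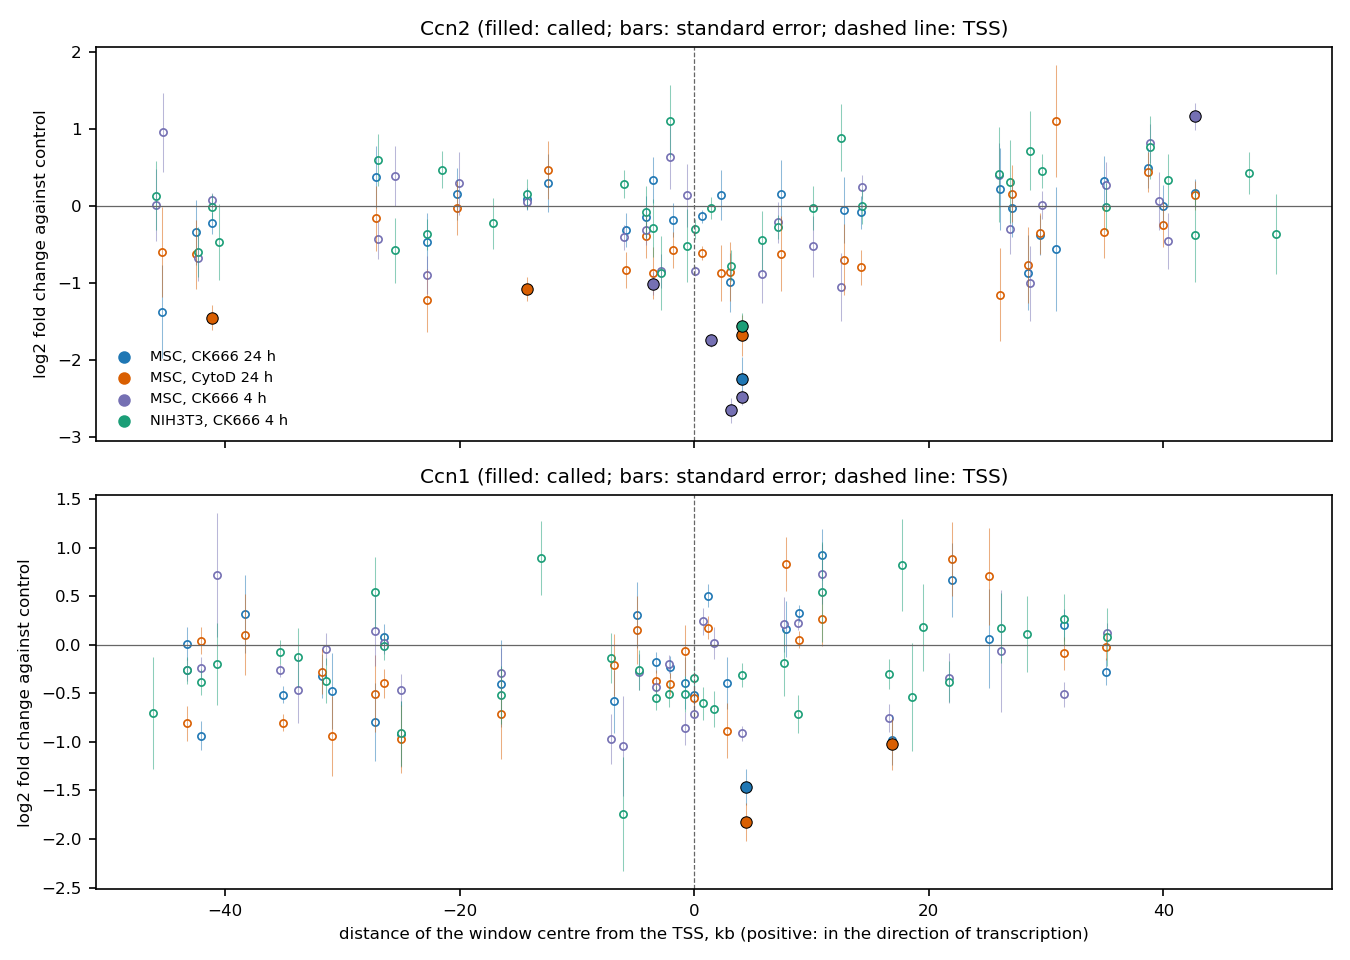
Log2 fold change against control with its standard error (y axis) of each tested window of Ccn2 (top) and Ccn1 (bottom) against the distance of its centre from the TSS in kb (x axis), with a colour for each of the 4 comparisons and filled points for windows past both limits. The windows just downstream, at +4073 bp for Ccn2 and +4423 bp for Ccn1, are low with both inhibitors at 24 h, and the Ccn2 windows at -14229 bp and -41135 bp are low with CytoD.

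Ankrd1 encodes an ankyrin repeat protein of muscle sarcomeres and nuclei and is strongly induced by YAP in many cells. Its window at -9380 bp (chr19:36128380-36130579) had 244.2, 277.0 and 304.7 normalized counts in controls. It had 173.2, 161.0 and 198.5 with CK666 and 168.0, 114.2 and 115.2 with CytoD. Both treated groups lay below the controls, and they met only at their edges, the highest CytoD library lying between the CK666 libraries. It was called lower with CytoD (-1.07 ± 0.14, edgeR, adjusted p = 5.23e-09), and with CK666 its change of -0.64 passed the adjusted p (0.000173) but not the fold limit. Without CytoD replicate 3 the CytoD change was -0.99 and with total counts -0.995, both short of the fold limit. The difference between the inhibitors was 0.43 (edgeR, adjusted p = 0.0329).

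Amotl2, Ajuba and Lats2 act inside the pathway that controls YAP. AMOTL2 binds YAP at junctions and actin and keeps it out of the nucleus, LATS2 is the kinase that phosphorylates YAP, and AJUBA restrains the LATS kinases. At Amotl2 the window at +42522 bp had 403.9, 424.5 and 393.2 normalized counts in controls, 194.8, 173.1 and 192.6 with CK666 and 180.7, 173.7 and 135.3 with CytoD. All treated libraries had fewer counts than every control. The log2 fold change was -1.13 ± 0.12 with CK666 and -1.33 ± 0.12 with CytoD (edgeR, adjusted p = 9.33e-13 and 1.1e-14), and the inhibitors did not differ past the threshold (0.21, adjusted p = 0.33). The window at +32956 bp (chr9:102752703-102753783) had 87.01, 69.04 and 69.71 counts in controls, 88.96, 66.12 and 80.59 with CK666 and 40.72, 30.36 and 33.83 with CytoD. Here the CytoD libraries alone stood below the controls. It fell with CytoD (-1.10 ± 0.24, edgeR, adjusted p = 0.000522), the CK666 value was 0.07 (adjusted p = 0.897), and the difference of 1.17 ± 0.24 passed (adjusted p = 0.000126).

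At Lats2 the window with the highest mean control count lay upstream of the TSS (-2275 bp, chr14:57759790-57761536). It had 544.2, 450.9 and 520.1 normalized counts in controls, 444.8, 441.1 and 520.9 with CK666 and 269.8, 274.5 and 235.9 with CytoD. The CytoD libraries lay far below the others, and the CK666 libraries overlapped the controls. The CytoD change of -0.96 ± 0.10 missed the fold limit with an adjusted p of 8.65e-12 (edgeR), and it passed the limit without CytoD replicate 1 (-1.01), CytoD replicate 2 (-1.02) or control replicate 2 (-1.06). The inhibitors differed there by 0.85 ± 0.10 (edgeR, adjusted p = 2.71e-10), also short of the fold limit. At Ajuba the window with the highest mean control count lay at +4879 bp and was 2121 bp long, counts not being divided by length. It had 198.8 ± 35.6 counts in controls (SD, n = 3) and log2 fold changes of -0.46 with CK666 and -0.33 with CytoD (edgeR, adjusted p = 0.0236 and 0.141).

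Axl and Crim1 encode membrane proteins. AXL is a receptor tyrosine kinase for the ligand GAS6, and CRIM1 is a cysteine-rich protein that binds bone morphogenetic proteins. The Axl window at +4735 bp, in an intron (chr7:25783689-25784215), had 146.8, 142.3 and 148.4 normalized counts in controls, 103.0, 69.61 and 92.38 with CK666 and 40.72, 53.43 and 84.12 with CytoD. Every treated library had fewer counts than the controls, and the treated groups overlapped each other. It was called with CytoD (-1.26 ± 0.19, edgeR, adjusted p = 6.55e-07), and with CK666 the change of -0.73 passed the adjusted p (0.00288) and not the fold limit. The difference between the inhibitors was 0.53 (edgeR, adjusted p = 0.074).

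Crim1 held 2 windows that fell with CK666 and did not pass the test with CytoD. In an intron at -10339 bp from the nearest Crim1 TSS (chr17:78227159-78227707) the controls had 107.8, 105.7 and 119.8 normalized counts, the CK666 libraries 39.33, 37.41 and 28.5 and the CytoD libraries 81.44, 59.51 and 89.61. The CK666 libraries were the lowest and overlapped neither other group. The CK666 change was -1.66 ± 0.21 (edgeR, adjusted p = 3.95e-09), the CytoD change -0.52 (adjusted p = 0.0819), and the difference -1.13 ± 0.22 (adjusted p = 9.42e-05). In an intron at +31650 bp (chr17:78269144-78269701) the controls had 320.8, 369.9 and 340.5 counts, the CK666 libraries 175.1, 150.5 and 152.3 and the CytoD libraries 302.9, 388.6 and 304.5. The CK666 change was -1.11 ± 0.12 (edgeR, adjusted p = 2.73e-12), the CytoD change -0.06 (adjusted p = 0.808), and the difference -1.06 ± 0.12 (adjusted p = 3.13e-11). The difference was -0.99 at the first window without CytoD replicate 3 and -0.92 at the second without CytoD replicate 2, short of the fold limit.

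**Figure D3:**
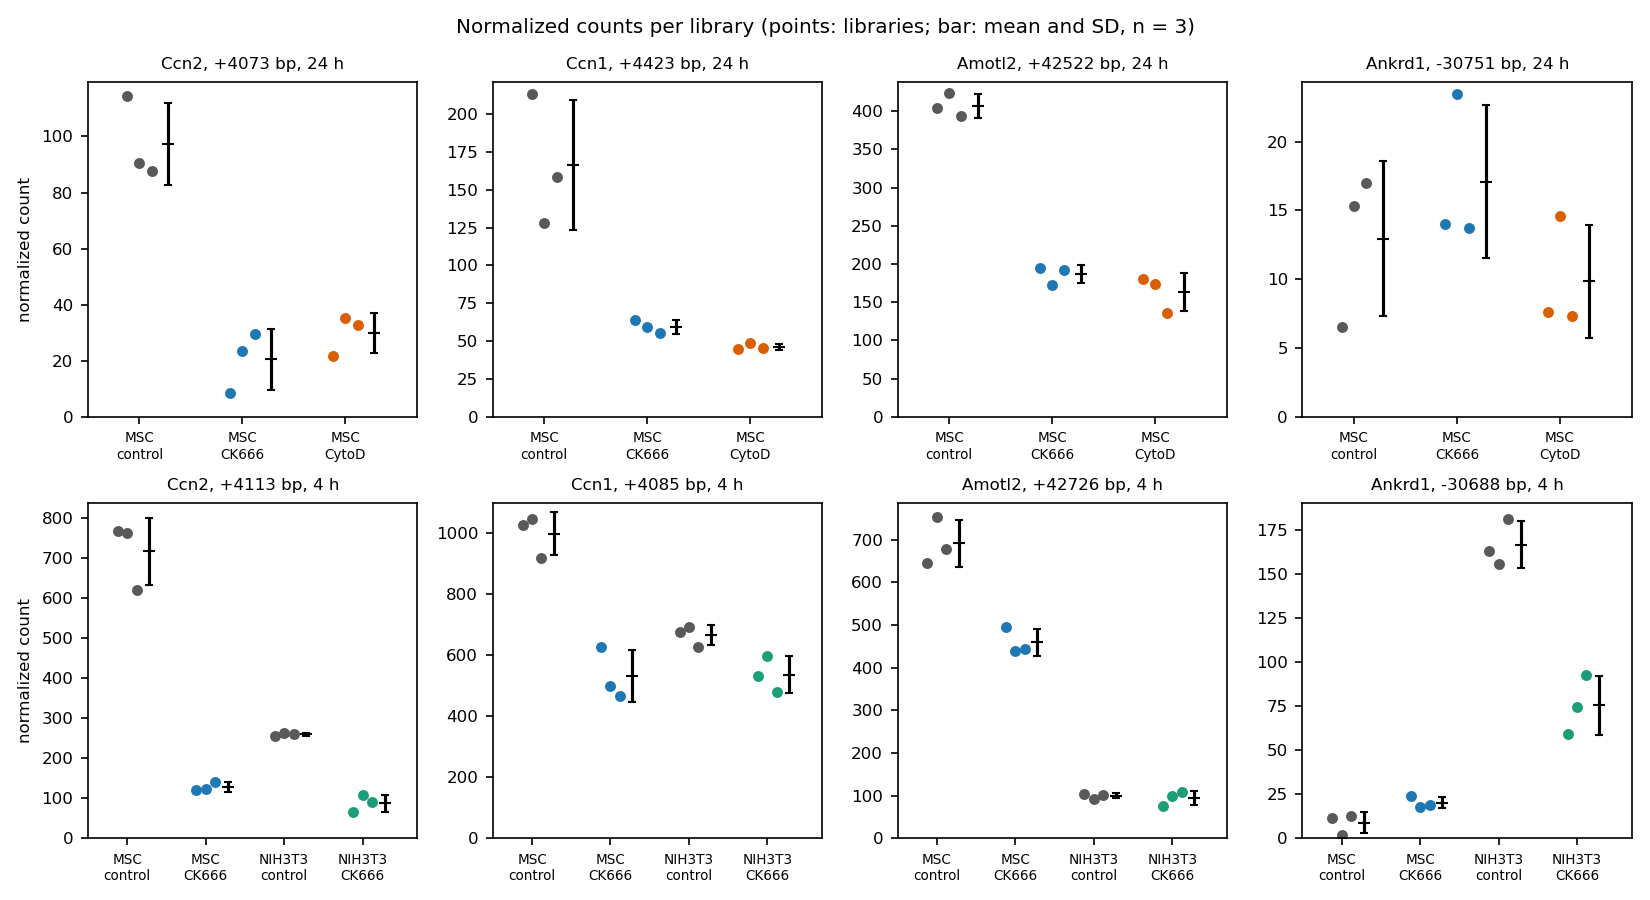
Normalized counts (y axis, from 0) in each library (points) of windows of Ccn2, Ccn1, Amotl2 and Ankrd1 at 24 h (top) and of overlapping windows, not of the same length, at 4 h (bottom), with the mean and SD of each group (bars, n = 3). At the Ccn2, Ccn1 and Amotl2 windows all CK666 and CytoD libraries lie below the controls at 24 h, and MSC and NIH3T3 libraries, scaled separately, are each to be read against their own controls.

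CK666 set directly against CytoD answers whether the inhibitors differed at a window. Of the 258 windows, 3 were called lower with CK666 than with CytoD and 4 higher, against 1.14% and 2.14% of all windows tested, and 6 and 13 passed the adjusted p alone, against 2.28% and 4.8%. Of all windows called in this comparison, 65.3% were higher with CK666, and 53.8% with total counts. The lower windows were all at Crim1, and the higher ones were 3 at Ccn2 and 1 at Amotl2. Beside those described, they were the Crim1 window at -19745 bp (-1.44, edgeR, adjusted p = 0.00686) and the Ccn2 window at -3512 bp (1.21, adjusted p = 0.00638), which lost the call in 6 and 5 of 16 alternatives, among them DESeq2. Without CytoD replicate 3 a single window was called lower.

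Windows that contain a TSS changed by less than the fold limit at 24 h or did not pass the test. Of 14 such windows of the 8 genes, 0 were called with either inhibitor by edgeR's quasi-likelihood test or by DESeq2 (4 lower and 1 higher with CK666, and 5 lower and 0 higher with CytoD, at an unadjusted p under 0.05 in edgeR's test), while 0.222% of all TSS windows were called lower with CK666 and 0.186% with CytoD. Shares of all TSS windows at the unadjusted p were not counted. In controls the TSS counts per kb of length put Crim1 (636, percentile 85.0 of all TSS windows) and Amotl2 (619, 84.4) highest, then Ccn1 (503, 79.5), Axl (291, 63.1), Ccn2 (290, 63.0), Lats2 (277, 61.4) and Ajuba (189, 49.8), with Ankrd1 lowest (37.0, 17.8). The Ccn1 TSS window had 259.7, 265.1 and 285.1 normalized counts in controls, 168.5, 182.7 and 214.2 with CK666 and 187.1, 189.4 and 179.2 with CytoD. All treated libraries lay below the controls, with changes of -0.52 and -0.55 (edgeR, adjusted p = 0.00127 and 0.000992). The Ccn2 TSS window (chr10:24595241-24597672) had 714.3, 666.5 and 734.6 counts in controls, 663.9, 619.5 and 645.7 with CK666 and 447.9, 470.0 and 468.2 with CytoD. All treated libraries lay below the controls, those with CK666 close to them and those with CytoD further off. The change with CytoD was -0.61 (edgeR, adjusted p = 6.66e-08), that with CK666 -0.13 (adjusted p = 0.381) and the difference 0.48 (adjusted p = 1.61e-05). The TSS window of Axl was lower with CytoD (-0.37, edgeR, adjusted p = 0.00542) and that of Crim1 with CK666 (-0.32, adjusted p = 0.00203), both short of the fold limit. The Ankrd1 TSS window, at a mean of 22.8 counts in controls, had -0.90 and -0.81 (edgeR, adjusted p = 0.244 and 0.299), which could not be told from 0 at this depth. At Amotl2 and Lats2 the TSS values were -0.04 and -0.06 with CK666 and -0.20 and -0.16 with CytoD.

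**Figure D4:**
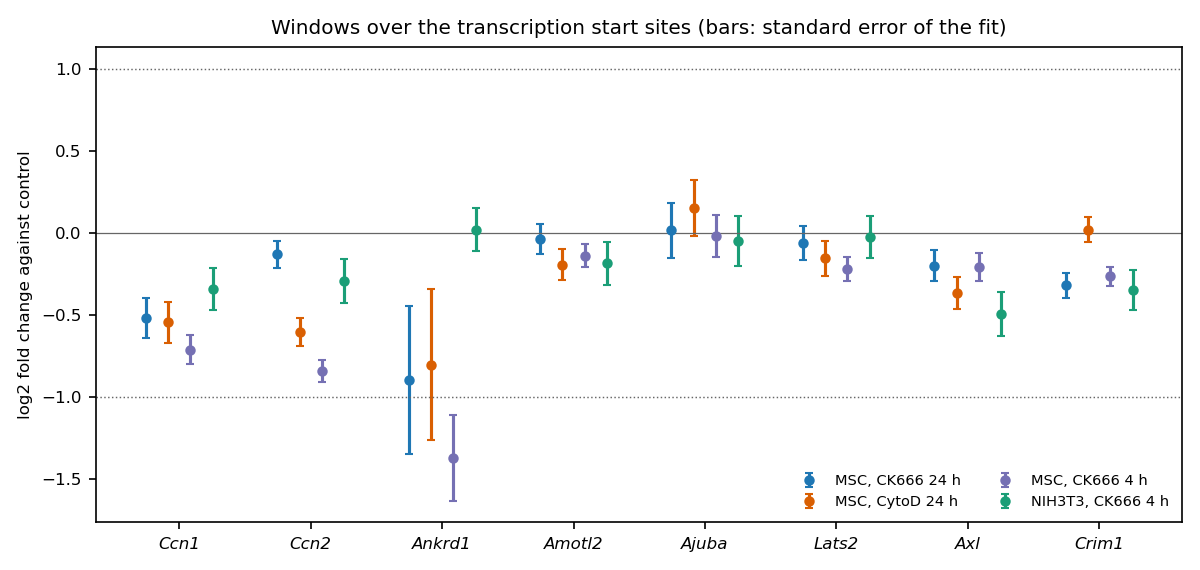
Log2 fold change against control with its standard error (y axis) of 1 TSS window of each gene (x axis), with a colour for each of the 4 comparisons and dotted lines at the fold limit. The Ccn2 TSS window lies at -0.13 with CK666 and -0.61 with CytoD at 24 h, and the Ankrd1 TSS window at -1.37 in MSCs and 0.02 in NIH3T3 cells after 4 h of CK666.

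After 4 h of CK666 in MSCs, the comparison taken as the one that chose the genes, 8 of 281 windows with enough counts were past both limits downward (2.85%) and 1 upward (0.356%), against 0.427% and 0.59% of all windows, and 33 and 4 were past the adjusted p alone, against 2.16% and 1.95%. Nothing is read from these counts. Of the 8, 4 were at Ccn2, 3 at Crim1 and 1 at Ankrd1. The Ccn2 window past the 3′ end (chr10:24599249-24600538 in this table) had 768.7, 761.8 and 619.5 normalized counts in controls and 120.3, 122.9 and 141.7 with CK666, a log2 fold change of -2.48. Its neighbour nearer to the gene (chr10:24598624-24599193) went from 264.1, 270.4 and 218.6 to 38.79, 44.21 and 36.38 (-2.65), and the window over the gene body (chr10:24596043-24598329) from 763.3, 938.5 and 770.6 to 272.5, 244.0 and 223.1 (-1.74). In each of these windows the CK666 libraries lay well below the controls. A further window at -3499 bp had 206.3, 194.6 and 177.9 counts in controls and 108.4, 98.14 and 81.37 with CK666 (-1.01). It was short of the limits in 3 of 13 alternatives. At the Ccn2 TSS window the change was -0.84. The 1 higher window, at +42662 bp in a UTR of the neighbouring gene Enpp1, had 56.66, 62.08 and 58.95 counts in controls and 149.2, 129.1 and 120.6 with CK666 (1.16).

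At the other genes in MSCs at 4 h, the Ankrd1 TSS window had 62.01, 67.34 and 68.59 normalized counts in controls and 15.91, 30.06 and 29.68 with CK666 (-1.37). The Crim1 window at -28809 bp had 806.1, 747.0 and 792.0 in controls and 399.8, 367.8 and 389.6 with CK666 (-1.02). It was short of the limits in 3 of 13 alternatives. A further 2 Crim1 windows, at +27079 and +22092 bp, had log2 fold changes of -1.09 and -1.003, which were short of the limits in 6 and 9 of 13 alternatives. Over the gene, 83 of 105 Crim1 windows were below 0, with a median of -0.26, against 49.9% and a median of 0.001 over all windows. Nothing is read from this count either. The Ccn1 window around the 3′ end (chr3:145643898-145647894 in this table) had 1028, 1047 and 917.4 counts in controls and 627.5, 498.6 and 466.2 with CK666 (-0.91). It is wider than the 24 h window past the 3′ end and also overlaps the separate 24 h window at +2764 bp. The Ccn1 TSS window had -0.71. The window near the far Amotl2 window named above, at +42726 bp, had -0.59, the Lats2 window at -1928 bp -0.61 and the Axl window at +6628 bp -0.47. Without control replicate 1, 4 windows in place of 8 were past both limits downward and 2 in place of 1 upward.

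In NIH3T3 cells after 4 h of CK666, 2 of 308 tested windows were called lower (0.649%) and 3 higher (0.974%) by edgeR's quasi-likelihood test, against 1.67% and 1.87% of all windows tested. By the adjusted p alone 14 were lower and 5 higher, against 4.35% and 2.51% of all windows. The share past both limits was no larger at these genes than in the whole table. Of all called windows 52.8% were higher, 69.5% with total counts and 39.7% with DESeq2. Directions rest on the labels of the libraries, which no deleted gene checks here. The Ccn2 window past the 3′ end (chr10:24599249-24600538) had 256.2, 262.9 and 261.6 normalized counts in controls and 65.25, 107.1 and 89.83 with CK666. The groups did not overlap, and the log2 fold change was -1.55 ± 0.16 (edgeR, adjusted p = 2.98e-11). Its neighbour (chr10:24598624-24599193) had 100.3, 89.54 and 87.2 counts in controls and 53.39, 53.01 and 55.43 with CK666 (-0.77, adjusted p = 0.00654, short of the fold limit). The window over the Ccn2 gene body was at -0.03 (edgeR, adjusted p = 0.934) and the Ccn2 TSS window at -0.29 (adjusted p = 0.136).

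Ankrd1 held 2 called windows in NIH3T3 cells, in opposite directions. The window at -30688 bp (chr19:36150455-36151120) had 163.1, 156.1 and 181.6 normalized counts in controls and 59.32, 74.83 and 92.69 with CK666, a change of -1.12 ± 0.18 (edgeR, adjusted p = 2.39e-06). Without CK666 replicate 1 it was -0.99, and a single window of the list was then called lower. The window at -23478 bp (chr19:36143193-36143962) had 6.077, 0.0 and 3.596 counts in controls and 28.18, 23.91 and 15.29 with CK666, a change of 2.80 ± 0.63 (edgeR, adjusted p = 0.00104) that rested on few counts and was 2.16 without control replicate 2 (adjusted p = 0.0171). The Ankrd1 TSS window had 428.4, 399.2 and 401.8 counts in controls and 407.8, 491.6 and 345.9 with CK666 (0.02, edgeR, adjusted p = 0.95). Its percentile among TSS windows of its own experiment was 81.4 in NIH3T3 controls and 26.2 in MSC controls at 4 h.

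The other called windows in NIH3T3 cells were higher. At Lats2 the intronic window at -7247 bp (chr14:57706754-57707520) had 37.47, 39.43 and 31.46 normalized counts in controls and 69.7, 118.5 and 109.9 with CK666 (1.48 ± 0.23, edgeR, adjusted p = 1.08e-06). At Crim1 the window at -14269 bp had 31.4, 50.11 and 25.17 in controls and 86.02, 58.2 and 75.49 with CK666 (1.02 ± 0.25, adjusted p = 0.00271), and the call was lost in 7 of 13 alternatives, among them without CK666 replicate 1 or 3 and without control replicate 1 or 3. Short of the fold limit, the adjusted p was passed by the Crim1 window at -28809 bp (-0.54, edgeR, adjusted p = 0.00147), the Ccn1 window at -3249 bp (-0.55, 0.00102) and the Axl TSS window (-0.50, 0.00754). The Ccn1 TSS window was at -0.34 (adjusted p = 0.0674), the wider 4 h window around the Ccn1 3′ end at -0.31 (0.0873) and the Amotl2 window at +42726 bp at -0.07 (0.861). Of the Ccn1 windows 25 of 34 were below 0, with a median of -0.28, against 47.3% and a median of 0.039 over all windows tested. These windows share a locus and are not replicates.

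The window past the 3′ end of Ccn2 was the only one of the 8 genes past both limits downward with CK666 in all 3 experiments, at -2.24 in MSCs at 24 h, -2.48 in MSCs at 4 h and -1.55 in NIH3T3 cells at 4 h. The value in MSCs at 4 h was among those taken to have chosen the genes, so it is no independent repeat. Whether the change differed between the cell types was not tested here. Over pairs of overlapping windows of the 24 h and 4 h tables, the log2 fold changes with CK666 in MSCs at 4 h and at 24 h had a Pearson r of 0.281 (268 pairs). Those in NIH3T3 cells at 4 h and MSCs at 24 h had one of 0.171 (264 pairs). A window could enter several pairs, and an overlap of any length counted. Over the windows of the 4 h table, the values in MSCs and NIH3T3 cells had one of 0.199 (273 windows). The windows share loci, base composition and, within a comparison, libraries, so these are descriptions.

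Motif letters were counted in windows of the 8 genes and in all windows. In the central 500 bp, GGAATG or CATTCC stood in 34.9% of the members' windows of the 24 h table against 29.3% of all windows, and TGACTCA or TGAGTCA in 18.2% against 20.3%. In the 4 h table the shares were 32.0% against 30.6% for the TEAD letters and 17.8% against 26.7% for the AP-1 letters among windows tested in MSCs, and 32.5% against 30.5% and 17.5% against 27.0% among those tested in NIH3T3 cells. With CytoD the median log2 fold change was -0.28 in members' windows with the TEAD letters and -0.03 in those without, and with CK666 at 24 h it was -0.08 and -0.01. For the AP-1 letters the gaps were of the same direction, at -0.35 and -0.07 with CytoD and -0.12 and -0.02 with CK666. At 4 h the medians with and without the TEAD letters were -0.21 and -0.19 in MSCs and 0.03 and -0.05 in NIH3T3 cells, and with and without the AP-1 letters -0.16 and -0.21 in MSCs and -0.07 and 0.002 in NIH3T3 cells. None of these gaps was tested.

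Other genes of the pathway, taken as lists, showed windows called in both directions in most comparisons. Of all windows, 1.06% were called lower and 1.88% higher with CK666 at 24 h, and 1.4% and 0.98% with CytoD. In MSCs at 4 h these shares were 0.427% and 0.59%, and in NIH3T3 cells 1.67% and 1.87%. The shares of each list stand in brackets. Among 15 further YAP and TEAD target genes, 7 of 547 tested windows were called lower and 14 higher with CK666 at 24 h (1.28% and 2.56%), and 11 and 7 with CytoD (2.01% and 1.28%). The counts were 3 and 9 of 539 in MSCs at 4 h (0.557% and 1.67%), and 11 and 8 of 521 in NIH3T3 cells (2.11% and 1.54%). A window at Gadd45a (+3529 bp), a growth arrest and DNA damage gene, rose from 110 ± 10.5 to 557 ± 28.8 normalized counts with CK666 (2.34 ± 0.12, edgeR, adjusted p = 5.28e-28), and a window at Ccdc80 (-22005 bp), a gene of an extracellular matrix protein, fell with CytoD (-2.47, adjusted p = 2.23e-15). Among 15 genes of the Hippo kinase core and its regulators, 2 of 268 windows were lower and 3 higher with CK666 at 24 h (0.746% and 1.12%), and 2 and 1 with CytoD (0.746% and 0.373%). The counts were 2 and 1 of 274 in MSCs at 4 h (0.73% and 0.365%), and 4 and 3 of 274 in NIH3T3 cells (1.46% and 1.09%). At Amotl1, a relative of Amotl2, the window at +38291 bp rose with CK666 at 24 h (2.69, edgeR, adjusted p = 1.71e-13). Among 9 genes of YAP, TAZ, the TEAD factors and their VGLL cofactors, 3 of 225 windows were lower and 3 higher with CK666 at 24 h (1.33% each), and 3 and 0 with CytoD (1.33% and 0%). The counts were 2 and 0 of 223 in MSCs at 4 h (0.897% and 0%), and 3 and 6 of 229 in NIH3T3 cells (1.31% and 2.62%). The windows called with CK666 at 24 h included a lower one at Tead1 (+38412 bp, -1.22, edgeR, adjusted p = 3.47e-08) and a higher one at Tead4 (+25386 bp, 1.57, adjusted p = 7.91e-10).

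The 50 kb limit of the rule was reached at Crim1. In the 24 h table the window just inside, 49.9 kb from a TSS, had log2 fold changes of 0.24 with CK666 and 0.33 with CytoD, and the one just outside, at 51.3 kb, had 0.12 and 0.08. In the 4 h table the window just inside, at 49.8 kb, had -0.21 in MSCs and -0.72 in NIH3T3 cells, and the one just outside, at 50.6 kb, had -0.34 and 0.10.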

How the data were processed

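The authors aligned ATAC-seq reads with bowtie2 in the PEPATAC pipeline, called peaks with MACS2, merged them over replicates into consensus windows, and deposited raw read counts per window and library in 2 tables, without normalization. Their settings were not stated. The submitters' processing notes name mm10, and positions are on GRCm38. The 9 siRNA libraries of the 24 h table were not used.

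Windows passing edgeR's filter on low counts were normalized by TMM and tested with edgeR 4.0.16 (R 4.3.3) by the quasi-likelihood test, adjusted by Benjamini-Hochberg over all windows of a comparison. One fit held all 9 libraries at 24 h, and each cell type was fitted alone at 4 h. TMM takes most windows as unchanged, so a shift of all windows would not be seen. The test was checked on simulated data. Alternatives were DESeq2 1.42.0, its size factors, total counts, a GC correction, no filter, no fold limit, a distance of 5 kb, a replicate block and leaving out each library.

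The genes, lists and alternatives were chosen with earlier results of these data known. Windows named are each gene's TSS window, its window with the highest mean control count in each experiment and its called windows. That count was not divided by window length. Further windows near a limit or at the place of a named one were chosen after their values were seen. For other lists, the windows named come from the 2 windows of smallest p in a comparison. Windows overlap neighbouring genes, and the assignment by distance does not show which gene a window acts on. The sequence of 1 window is not reported here.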

Additional observations from a re-analysis of the deposited data

Results flagged for a closer look

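The Ankrd1 window at -30688 bp had log2 fold changes of opposite sign in the 2 cell types after 4 h of CK666, with every treated library on the same side of its controls. In NIH3T3 cells it was -1.12, called lower. In MSCs it was 1.17, from 11.76, 2.104 and 12.86 normalized counts in controls to 23.87, 17.68 and 19.15 with CK666, and it was not past the limits there. The difference between the cell types was not tested, and the MSC value rests on few counts.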

How the results depend on the processing

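None of the called windows changed sign under an alternative, and 1164 of 1243 values of named windows under alternatives were counted as unchanged. Outside MSCs at 4 h this meant the same direction and the same side of the threshold. In MSCs at 4 h it meant a move smaller than the standard error, so a window could leave the limits and still count. There the Crim1 window at +22092 bp was short of the limits in 9 of 13 alternatives. Most of the named values were of windows not called, so the 1164 of 1243 do not measure how stable the calls were. The Ccn1 call at +16910 bp with CytoD was lost in 5 of 16 alternatives. In NIH3T3 cells the Crim1 call at -14269 bp was lost in 7 of 13. Others, such as the Ccn2 call at +4073 bp with CK666 at 24 h (0 of 16), were kept in all. Without the fold limit, 20 windows were lower and 3 higher with CK666 at 24 h, 24 and 1 with CytoD, 6 and 13 in CK666 against CytoD, 33 and 4 in MSCs at 4 h and 14 and 5 in NIH3T3 cells. The shares of all windows by the adjusted p alone are given with each comparison above. Within 5 kb of a TSS the counts were 2 and 0, 3 and 0, 0 and 1, 5 and 0, and 1 and 0, and shares of all windows at that distance were not counted. The count with CK666 at 24 h was 8 with DESeq2's size factors, with the GC correction, without the filter, and with the replicate block and GC correction. With total counts 6 windows were lower and 1 higher with CytoD, 4 and 3 between the inhibitors, 5 and 1 in MSCs at 4 h and 2 and 6 in NIH3T3 cells, where this scaling moved the median of all windows from 0.039 to 0.149. Leaving out 1 library at a time gave 5 to 9 lower and 0 higher windows with CK666, 7 to 12 and 0 to 2 with CytoD, 1 to 4 and 3 to 5 between the inhibitors, 4 to 8 and 1 to 2 in MSCs at 4 h, and 1 to 3 and 2 to 3 in NIH3T3 cells. The causes were not tested. No pairing by replicate number was seen. The deviations of same-numbered libraries correlated between -0.0579 and 0.0221, and those of other-numbered libraries between -0.0365 and 0.043. These values do not show whether same-numbered libraries were handled together. With the replicate block the counts were 6 and 0, 9 and 0, 3 and 4, 8 and 1, and 2 and 3, and the Crim1 window at +22092 bp in MSCs at 4 h lost its place past the limits. Values that changed sign lay near 0. The Ajuba TSS window (-24 bp) with CK666 at 24 h went from 0.014 to -0.0029 with DESeq2, -0.0065 with its size factors, -0.0025 with the GC correction, -0.014 without the filter and -0.0042 with block and GC, and ran from -0.12 to 0.22 with 1 library left out. With CytoD it ran from -0.052 to 0.36. The Amotl2 TSS window with CK666 at 24 h ran from -0.15 to 0.040. The Crim1 TSS window with CytoD went from 0.018 to -0.033 (GC), -0.0087 (no filter) and -0.027 (block and GC), and ran from -0.071 to 0.083. In NIH3T3 cells the Ajuba window at +4545 bp went from 0.030 to -0.0052 (DESeq2), -0.0054 (size factors), -0.0033 (GC) and -0.0077 (block and GC), and ran from -0.090 to 0.11. The Ankrd1 TSS window there went from 0.019 to -0.016 with DESeq2 or its size factors, -0.013 (GC), -0.0063 (no filter) and -0.026 (block and GC), and ran from -0.16 to 0.13. With total counts the values in NIH3T3 cells were 0.061 at the Ajuba TSS, 0.086 at the Lats2 TSS, 0.036 at the Ccn1 window at -35315 bp, which ran from -0.17 to 0.025 with 1 library left out, and 0.0072 at the Axl window at +6628 bp. Depth limits windows of few counts most, such as the Ankrd1 TSS window in MSCs and the Ankrd1 window at -23478 bp in NIH3T3 controls.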
